A study of Mus musculus with 18 samples.

Results

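The cholesterol biosynthesis genes described here are 28 genes of 32285 in each mRNA matrix of a mouse skin expansion study. They were chosen by symbol, as the enzymes that build cholesterol with their sterol sensors and carriers, with earlier results of these libraries known, and all 28 symbols were found in all 10 matrices. Their UMIs (unique molecular identifiers, one per captured RNA molecule) numbered 399884 in the cells analysed, from 779 for Tm7sf2 to 45439 for Hmgcs1. Mice of both arms were operated on: the back skin was cut near the tail and a subcutaneous tunnel was made to the neck. A hydrogel, the expander, was stitched in place at the neck in the expanded arm and left out in the control arm, so both arms carry the wound of the operation. The labels give no strain, sex or age. Skin was taken 1, 2 or 4 days later, digested and sorted for living, DAPI-negative cells, and 5 control and 5 expanded 10x 3′ libraries were made, each from the pooled mice of one arm, day and round. The arms are paired by day and round (day 1 rounds 1 and 2, day 2 rounds 1 and 2, day 4 round 1), and lists of 5 values below follow that order. Because mice were pooled, the 5 libraries of an arm, not mice, are the replicates. Antibody hashing, which marks the cells of 1 mouse before pooling, covered 3 or 4 mice in each of 8 libraries.

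Mammalian cells make cholesterol from acetyl-CoA. The mevalonate pathway yields farnesyl diphosphate, squalene synthase and squalene epoxidase commit it to sterols, lanosterol synthase closes the rings, and a last series of oxidations, demethylations and reductions turns lanosterol into cholesterol. Sterol supply is sensed in the endoplasmic reticulum: when sterols are plentiful, the Insig proteins hold Scap together with the precursor of the transcription factor SREBP-2, which Srebf2 encodes, and when sterols fall the factor is released and switches on the genes of the pathway together. In skin the pathway serves membranes, the barrier lipids of the epidermis and the sebum made by sebaceous glands.

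The promoters of 5 genes are shown because these genes were higher with expansion in fibroblast-like, basal keratinocyte-like and macrophage or monocyte-like cells and each has 1 listed start. Sequences are from RefSeq (GRCm38.p6), 250 bases up to the base before the transcript start, on the gene's strand. Capitals mark the CCAAT box (CCAAT, or ATTGG on the other strand), which the factor NF-Y binds, and the sterol element searched for (TCACNCCAC or TCANCCCAC, either strand), a form that SREBP proteins bind.
Hmgcs1 (HMG-CoA synthase), chr13:119690101-119690350, plus strand: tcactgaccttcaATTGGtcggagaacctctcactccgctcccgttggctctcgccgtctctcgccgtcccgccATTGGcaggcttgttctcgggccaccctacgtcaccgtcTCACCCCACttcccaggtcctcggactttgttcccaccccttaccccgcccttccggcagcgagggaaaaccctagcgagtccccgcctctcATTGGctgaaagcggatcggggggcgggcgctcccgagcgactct
Mvk (mevalonate kinase), chr5:114444019-114444268, plus strand: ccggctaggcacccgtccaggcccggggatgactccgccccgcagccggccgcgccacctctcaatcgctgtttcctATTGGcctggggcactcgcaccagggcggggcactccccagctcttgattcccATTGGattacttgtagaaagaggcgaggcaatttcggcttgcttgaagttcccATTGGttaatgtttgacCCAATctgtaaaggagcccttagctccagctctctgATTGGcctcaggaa
Idi1 (isopentenyl diphosphate isomerase), chr13:8885356-8885605, plus strand: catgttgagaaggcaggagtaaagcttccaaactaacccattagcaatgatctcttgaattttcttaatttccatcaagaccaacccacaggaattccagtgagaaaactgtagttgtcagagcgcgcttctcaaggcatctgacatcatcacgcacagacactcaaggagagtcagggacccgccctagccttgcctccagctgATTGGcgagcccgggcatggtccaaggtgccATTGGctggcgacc
Cyp51 (lanosterol 14-demethylase), chr5:4104698-4104947, minus strand: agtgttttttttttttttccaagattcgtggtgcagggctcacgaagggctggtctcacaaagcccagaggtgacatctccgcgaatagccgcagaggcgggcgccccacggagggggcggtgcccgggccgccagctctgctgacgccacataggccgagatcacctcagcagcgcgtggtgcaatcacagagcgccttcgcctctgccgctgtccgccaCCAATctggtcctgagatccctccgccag
Srebf2 (SREBP-2), chr15:82147019-82147268, plus strand: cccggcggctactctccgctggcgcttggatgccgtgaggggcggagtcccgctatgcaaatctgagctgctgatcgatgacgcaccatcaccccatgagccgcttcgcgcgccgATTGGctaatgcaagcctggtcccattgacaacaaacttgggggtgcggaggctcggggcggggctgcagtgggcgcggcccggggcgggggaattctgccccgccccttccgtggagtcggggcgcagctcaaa
The Mvk window holds 5 CCAAT boxes, Hmgcs1 3, Idi1 2, and Cyp51 and Srebf2 1 each. Of the 28 genes, 21 had a promoter in the table, and 19 of these 21 (90.5%) held a CCAAT box, against 37.5% of all 27025 genes listed; Acat2 and Scap held none. The sterol element was found in 1 of the 21, Hmgcs1, where 1 site 137 bases before the start matches both spellings, and in 2.03% of all genes listed. No promoter was read for Acat1, Acat3, Fdps, Fdft1, Sqle, Stard4 and Npc1. Other spellings of the sterol element were not searched for, so a window without a match may still hold a variant. These are matches of letters, with no measurement of binding.

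After filtering, 46065 cells were analysed (28798 control, 17267 expanded), and the libraries held 17726739 to 75470722 gene UMIs each. Of 45 clusters, made without the 28 genes, 36 were named in 19 classes by fixed markers and are written "-like", and 9 clusters with 7923 cells stayed unnamed. Of 45819 distinct barcodes, 246 occurred in more than 1 library. Levels are given as CPM, the UMIs of a gene per 1000000 gene UMIs of the class in that library. Each mRNA gives one 3′ tag, so a level does not depend on transcript length.

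The summed level of the 28 genes differed between cell classes over a wide range. It was highest in sebaceous gland-like cells, at 3003 ± 1325 CPM (SD, n = 4) in control skin, followed by suprabasal keratinocyte-like cells at 1424 ± 179 CPM (n = 4). Next came dermal papilla-like (1214 CPM), Schwann-like (1208 CPM) and melanocyte-like cells (1167 CPM; n = 4 each) and Langerhans-like cells (1067 CPM, n = 3). Basal keratinocyte-like cells stood at 952 ± 129 CPM, T cell-like cells at 707 ± 91.0 CPM, fibroblast-like cells at 656 ± 39.8 CPM, macrophage or monocyte-like cells at 576 ± 32.3 CPM and endothelial-like cells at 429 ± 29.8 CPM (n = 5 each). The single genes that led the sum differed too. Hmgcs1, which makes HMG-CoA, led in sebaceous gland-like cells (442 CPM), suprabasal (226 CPM) and basal keratinocyte-like cells (163 CPM). Npc1, the lysosomal cholesterol exporter, led in macrophage or monocyte-like cells (177 CPM), Cyp51 in T cell-like cells (77.1 CPM), and the sensor Insig1 in fibroblast-like cells (71.3 CPM), where the ketothiolase Acat1 (70.9 CPM) and the sterol isomerase Ebp (70.8 CPM) differed from it by less than their spread.

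With expansion the mean summed level was higher in 15 of the 16 classes that had at least 3 libraries per arm, and the exception was the sebaceous gland-like class. Among the 15, dermal papilla-like cells were higher in 2 of 4 pairs and mast cell-like cells in 2 of 3. Neutrophil-like cells, with 2 control libraries, were not among the 16 and had a ratio of 0.81. The control libraries of fibroblast-like cells stood at 604, 675, 642, 711 and 646 CPM and the expanded ones at 900, 862, 1213, 1149 and 1149 CPM, so the arms did not overlap and the ratio of the means was 1.61. In basal keratinocyte-like cells the values were 923, 1020, 743, 1072 and 1003 CPM against 1297, 1669, 1729, 1750 and 1654 CPM, a ratio of 1.70. Macrophage or monocyte-like cells had a smaller ratio, from 590, 538, 616, 590 and 548 CPM to 719, 712, 921, 736 and 765 CPM (1.34). These 3 classes, endothelial-like (1.16), pericyte-like (1.45), lymphatic endothelial-like (1.47) and suprabasal keratinocyte-like cells (1.68) each had every expanded library above every control library. The sums are descriptions, with no test. They are plain CPM, without the rescaling of libraries that the test of single genes applies. The part of this scaling in small ratios, such as the 1.16 of endothelial-like cells, was not tested.

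**Figure D1:**
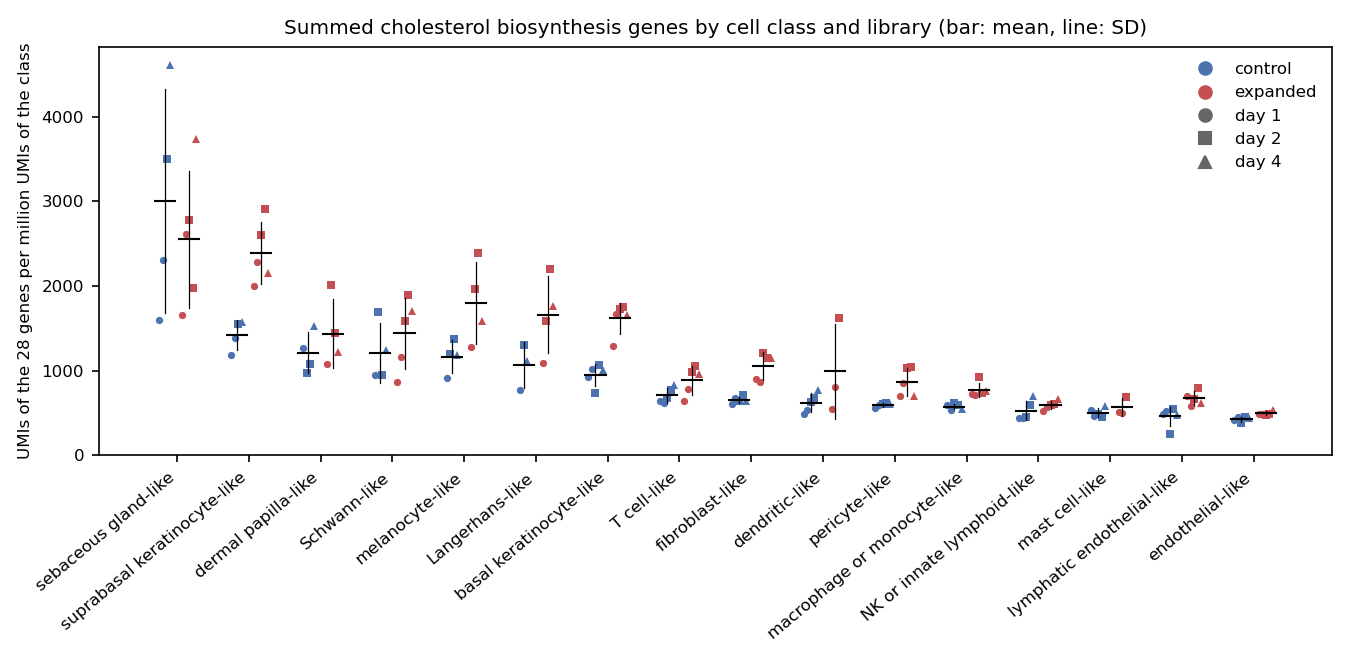
Summed CPM of the 28 genes in the class, for each library (points; shape gives the day) of the control (blue) and expanded (red) arm, with the mean (bar) and SD (line), for the 16 classes with at least 3 libraries per arm. Sebaceous gland-like cells are highest and their arms overlap, while the expanded libraries of basal keratinocyte-like cells (1297 to 1750) all lie above the control ones (743 to 1072).

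Single genes were tested with edgeR's quasi-likelihood test on UMIs summed per library and class, with day as a covariate and Benjamini-Hochberg adjustment over all genes tested; "rose" or "fell" means an adjusted p under 0.05. Because the genes were picked with earlier results of these libraries in view, the counts are descriptions and are set beside the share of all genes called. In fibroblast-like cells 18 of 28 genes rose and 2 fell, where 15.1% of the 13612 genes tested rose and 15.7% fell; the median log2 fold change of the 28 was 0.69 and that of all genes 0.02. By role, 8 of 10 mevalonate pathway genes rose, all 3 genes of squalene and lanosterol formation, 4 of 8 genes from lanosterol to cholesterol, 2 of 4 sterol sensing genes (Srebf2 and Scap) and 1 of 3 transport genes (Stard4). The genes that fell were Npc1 and the sensor Insig2.

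Acat3, an acetyl-CoA acetyltransferase, had the smallest adjusted p in these cells and is described at the end. Msmo1, the sterol C4-methyl oxidase, stood at 8.79, 9.19, 9.65, 13.4 and 9.71 CPM in the control libraries of fibroblast-like cells and at 29.6, 24.4, 39.3, 42.3 and 46.8 CPM in the expanded ones. The lowest expanded library was above the highest control library, and the log2 fold change was 1.63 ± 0.14 (SE; edgeR adjusted p = 0.000144). Stard4, which carries sterols between membranes, stood at 4.07, 4.38, 6.03, 5.10 and 3.57 CPM against 11.2, 14.4, 20.1, 19.5 and 17.3 CPM. The arms did not overlap (log2 fold change 1.63 ± 0.16; edgeR adjusted p = 0.000265). Sqle, squalene epoxidase and a slow step of the pathway, stood at 5.96, 9.85, 8.66, 11.8 and 10.6 CPM against 21.2, 30.5, 41.7, 47.8 and 36.2 CPM. Its log2 fold change was 1.70 ± 0.17 (edgeR adjusted p = 0.00030), with the smallest expanded value again on day 1. Idi1 stood at 10.5, 15.9, 17.0, 17.9 and 16.1 CPM against 32.6, 31.3, 61.5, 65.4 and 65.0 CPM, so the expanded libraries of days 2 and 4 lay near 60 CPM or above and those of day 1 near 30 CPM; its log2 fold change was 1.47 ± 0.16 (edgeR adjusted p = 0.000342). Fdft1, squalene synthase, varied little between the expanded libraries: it stood at 5.54, 6.20, 4.61, 7.24 and 5.72 CPM against 16.2, 12.5, 15.1, 15.9 and 15.8 CPM (log2 fold change 1.17 ± 0.14; edgeR adjusted p = 0.000509).

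The other genes that rose in fibroblast-like cells ranged from 0.54 (Scap, the SREBP escort) to 1.85 (Lss, lanosterol synthase) on the log2 scale, among them Fdps, farnesyl diphosphate synthase (1.60), Hmgcs1 (0.84) and Srebf2 (0.57). Npc1 went the other way: control libraries stood at 69.3, 62.3, 72.4, 63.3 and 75.1 CPM and expanded ones at 47.5, 45.1, 43.8, 55.0 and 59.2 CPM. It fell by 0.65 on the log2 scale, with no overlap of the arms (SE 0.12; edgeR adjusted p = 0.00244). Insig2 fell by 0.39 on that scale (edgeR adjusted p = 0.0279) with overlapping arms, lower in 5 of 5 pairs. The 8 genes that did not pass were Acat1, Ggps1, Tm7sf2, Hsd17b7, Ebp, Dhcr7, Insig1 and Tmem97, with log2 fold changes from -0.34 to 0.56. CPM ratios in this class run above the fold changes of the test. The test rescales each library (TMM) where CPM does not. The 7 fibroblast markers, collagens among them, summed to 65363 to 179668 CPM in control and 27694 to 82180 CPM in expanded libraries. Whether they account for the gap was not tested. Neutrophil markers summed to 4.41 to 14.3 CPM in control and 9.57 to 167 CPM in expanded libraries, with 7 of 7 at the higher mean in expanded skin, and their part in the result was not tested.

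The fibroblast-like class was made of different clusters in the arms. Cluster 1, led by Col1a1 and Col1a2, held 42.1% of its control cells and 7.88% of its expanded cells, and cluster 18, led by Cxcl5, Tnc and Il19, held 1.69% and 27.2%. The mean summed level was higher in expanded skin in each of the 8 clusters of the class that had libraries in both arms. Ratios ran from 1.03 (cluster 7, with 2 expanded libraries) to 1.67 (cluster 28). The arms overlapped in clusters 1, 7, 17, 20 and 28 and not in clusters 9, 18 and 19. Cluster 1 was higher in 2 of 3 pairs, and clusters 20 and 28 in 3 of 4. The part of the cluster change in the class result was not tested. In cluster 19, 8 of the 25 genes tested rose and 1 (Insig2) fell, where 6.77% of all genes rose. Fdps (log2 fold change 1.14), Sqle (1.21), Idi1 (1.02) and Msmo1 (1.00) were among the 8. In cluster 3, an unnamed cluster led by Coch, Fmod and Kera, 15 of 27 genes rose and none fell, against 4.97% of all genes that rose. Lss (2.33), Stard4 (1.90), Idi1 (1.58) and Fdft1 (1.56) had the largest log2 fold changes there. Cluster 3 was present in both arms with 1669 control and 1357 expanded cells, and its summed level went from 687 ± 71.0 to 1124 ± 115 CPM (SD, n = 5 each) with no overlap.

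**Figure D2:**
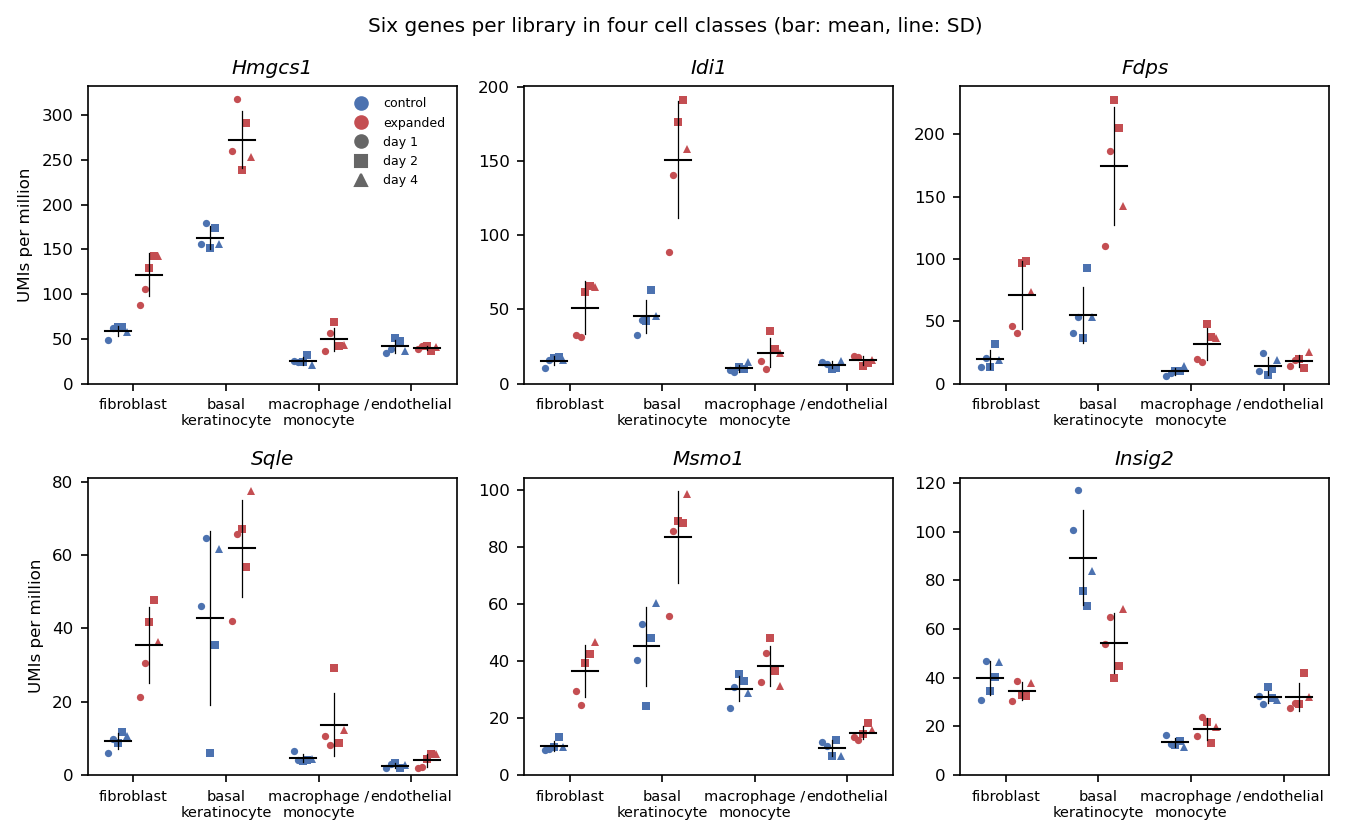
CPM of 6 genes in each library (points; shape gives the day) of 4 cell classes, control (blue) and expanded (red), with the mean (bar) and SD (line). Hmgcs1, Idi1 and Fdps separate the arms in fibroblast-like and basal keratinocyte-like cells and not in endothelial-like cells, and Insig2 is lower in expanded basal keratinocyte-like cells (54.3 against 89.3 CPM on average).

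In basal keratinocyte-like cells 19 of the 27 genes tested rose and the same 2 genes, Npc1 and Insig2, fell; of the 11233 genes tested, 11.2% rose and 8.23% fell. The median log2 fold change was 0.70 against 0.01 for all genes. Cluster 8 of this class has Lhx2, a fixed hair follicle marker, among its leading genes. The class may therefore hold follicle cells, which was not tested. The rise covered 8 of 9 mevalonate pathway genes, 2 of 3 genes of squalene and lanosterol formation, 5 of 8 genes from lanosterol to cholesterol, 2 of 4 sensing genes (Srebf2 and Insig1) and 2 of 3 transport genes (Stard4 and Tmem97).

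Idi1 stood at 32.5, 43.1, 42.3, 63.0 and 45.3 CPM in the control libraries of basal keratinocyte-like cells and at 88.8, 140, 176, 191 and 158 CPM in the expanded ones. Every expanded library was above every control library, and the log2 fold change was 1.64 ± 0.16 (SE; edgeR adjusted p = 0.000234). Acat2, a cytosolic acetyl-CoA acetyltransferase at the entry of the pathway, stood at 10.5, 8.34, 9.06, 14.5 and 10.1 CPM against 23.0, 27.9, 31.5, 31.6 and 28.3 CPM (log2 fold change 1.32 ± 0.15; edgeR adjusted p = 0.000464). Mvk, mevalonate kinase, stood at 13.0, 14.2, 15.1, 20.3 and 12.1 CPM against 34.7, 42.7, 39.4, 43.4 and 26.2 CPM. Its arms did not overlap, with the smallest expanded value on day 4 (log2 fold change 1.25 ± 0.14; edgeR adjusted p = 0.000464). Tmem97, a sterol-regulated membrane protein that binds Npc1, stood at 9.28, 9.38, 18.1, 17.7 and 11.1 CPM against 24.8, 29.7, 44.8, 34.3 and 37.6 CPM (log2 fold change 1.41 ± 0.15; edgeR adjusted p = 0.000464). Nsdhl, the sterol C4 dehydrogenase, stood at 8.04, 8.68, 12.1, 11.3 and 6.75 CPM against 18.8, 21.2, 25.3, 24.1 and 17.5 CPM (log2 fold change 1.18 ± 0.15; edgeR adjusted p = 0.00056). Fdps varied more between libraries. It stood at 40.2, 53.5, 36.2, 92.3 and 53.1 CPM against 110, 187, 228, 205 and 143 CPM, still without overlap (log2 fold change 1.53 ± 0.20; edgeR adjusted p = 0.000713).

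The remaining genes that rose in basal keratinocyte-like cells ranged from 0.40 (Acat1) to 2.17 (Mvd, the last enzyme before isopentenyl diphosphate) on the log2 scale. Mvd rested on few molecules in control skin, 25 UMIs in all, against 311 in expanded skin. Hmgcs1, the most abundant of the genes, went from 163 ± 12.6 to 272 ± 31.8 CPM (SD, n = 5 each; log2 fold change 0.69). Insig2 fell by 0.76 on the log2 scale (edgeR adjusted p = 0.0028), from 101, 117, 75.5, 69.4 and 83.9 CPM to 53.8, 64.9, 39.8, 44.99 and 68.1 CPM, lower in 5 of 5 pairs and without overlap. Npc1 fell by 0.76 (edgeR adjusted p = 0.00225), lower in 5 of 5 pairs. Sqle, which rose in fibroblast-like cells, stood at 46.1, 64.6, 6.04, 35.4 and 61.7 CPM against 41.9, 65.7, 67.2, 56.8 and 77.4 CPM and did not pass (log2 fold change 0.35; edgeR adjusted p = 0.352). Ggps1, Tm7sf2, Sc5d, Dhcr7 and Scap did not pass either, and Acat3 was not tested.

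The control library of day 2, round 1 held only 39 basal keratinocyte-like cells, and without it 19 of the genes passed. With every cell thinned to 2000 UMIs, 9 of 24 genes passed. Fibroblast markers summed to 553 to 7651 CPM in the control and 17.1 to 308 CPM in the expanded libraries of this class, and neutrophil markers to 0 to 6.95 CPM and 10.4 to 741 CPM; all 7 neutrophil markers had the higher mean in expanded skin and all 7 fibroblast markers the lower. Their part in the result was not tested. Sebaceous gland markers, of the class with the highest sum, spanned 144 to 205 CPM in control and 139 to 205 CPM in expanded libraries.

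Of the 2 clusters in this class, cluster 11 (Krt14, Krt5, Gata6 and Defb1) held 45.4% of the control and 38.7% of the expanded cells, and 18 of its 26 genes tested rose and 2 fell, where 11.9% of all genes rose. Mvd (log2 fold change 3.10), Tmem97 (1.91), Idi1 (1.86), Mvk (1.77), Acat2 (1.73) and Fdps (1.72) rose most there. In cluster 8 (Krt24, Krt15 and Lhx2) 5 of 26 rose (Idi1, Fdps, Hmgcs1, Acat2 and Srebf2) and Npc1 fell, where 1.78% of all genes rose. The calls of cluster 8 rest on single libraries: the count was 0 when the day 1, round 1 control was left out and 2 when the day 2, round 2 control or the day 1, round 2 expanded library was. Cluster 24, an unnamed cluster led by Hoxc13 and Gm973, had none of 26 genes called by edgeR, with 3 at an unadjusted p under 0.05, and 0.458% of all genes called; with a replicate block for the day and round pair, 1 gene was called, lower.

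Suprabasal keratinocyte-like cells had few cells, 244 control and 228 expanded, and libraries with at least 10 of them were used (4 control, 5 expanded). Of 26 genes tested 8 rose and none fell, where 1.98% of 6507 genes rose. In the order of the libraries, without day 2, round 1 for control, Idi1 stood at 44.9, 71.4, 120 and 74.4 CPM against 108, 195, 270, 302 and 174 CPM. The arms overlapped in 1 pair of values (log2 fold change 1.23 ± 0.22, SE; edgeR adjusted p = 0.00732). Nsdhl stood at 10.7, 16.5, 11.4 and 2.86 CPM against 45.4, 38.0, 50.9, 42.3 and 17.9 CPM (log2 fold change 1.59 ± 0.29; edgeR adjusted p = 0.00781). Lss stood at 6.41, 4.71, 5.70 and 5.72 CPM against 26.5, 19.01, 31.8, 39.3 and 20.2 CPM, without overlap (log2 fold change 1.94 ± 0.37; edgeR adjusted p = 0.00958), on 16 control and 102 expanded UMIs. Acat2 stood at 7.48, 11.8, 37.0 and 5.72 CPM against 43.5, 44.1, 47.7, 72.5 and 31.4 CPM and overlapped (1.61 ± 0.31; edgeR adjusted p = 0.0104). Mvk stood at 35.3, 44.7, 42.7 and 45.8 CPM against 85.1, 125, 73.2, 87.6 and 61.7 CPM, and Fdps at 126, 154, 131 and 232 CPM against 291, 410, 382, 320 and 244 CPM. Neither overlapped between the arms, with log2 fold changes of 1.01 and 0.96 (edgeR adjusted p = 0.0199 and 0.0261).

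Tmem97 (log2 fold change 1.33) and Sqle (0.79) were the other genes that rose in suprabasal cells. The 18 tested genes that did not pass had log2 fold changes from -0.81 (Npc1) to 1.72 (Mvd). The count rests on single libraries: it was 2 when either library of day 1, round 2 was left out, and 4 when the day 1, round 1 control was. With cells thinned to 2000 UMIs 4 of the genes were tested and none passed. Neutrophil markers summed to 5.72 to 22.8 CPM in control and 56.7 to 3433 CPM in expanded libraries of this class (6 of 7 with the higher mean in expanded skin), and fibroblast markers to 117 to 3045 CPM and 3.02 to 150 CPM (0 of 7); their part in the result was not tested.

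In macrophage or monocyte-like cells 12 of 27 genes rose and none fell, where 9.50% of 11333 genes rose; the median log2 fold change was 0.55 against 0.01 for all genes. The rise covered 5 of 9 mevalonate pathway genes, 2 of 3 genes of squalene and lanosterol formation (Fdft1 and Sqle), 2 of 8 later enzymes (Cyp51 and Hsd17b7), the sensing genes Insig1 and Srebf2, and Stard4. In control cells the enzymes differed in level: Acat1 averaged 62.3 CPM, Ebp 54.1 CPM and Msmo1 30.3 CPM, while Fdps and Fdft1 were lower. Fdps stood at 6.43, 8.08, 9.68, 10.1 and 14.2 CPM against 19.95, 17.4, 48.0, 37.4 and 36.7 CPM. The arms did not overlap and the expanded libraries of day 1 were the lowest (log2 fold change 1.57 ± 0.20, SE; edgeR adjusted p = 0.00154). Stard4 stood at 5.33, 6.98, 7.74, 5.49 and 4.86 CPM against 18.8, 12.0, 19.5, 13.7 and 14.1 CPM (log2 fold change 1.29 ± 0.22; edgeR adjusted p = 0.00413). Hmgcs1 stood at 24.8, 23.9, 24.5, 32.0 and 20.2 CPM against 36.6, 56.8, 68.4, 42.2 and 43.4 CPM. It did not overlap, and its highest value came from day 2, round 1 (log2 fold change 0.88 ± 0.18; edgeR adjusted p = 0.00938).

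Fdft1 in macrophage or monocyte-like cells stood at 2.02, 1.84, 1.94, 3.66 and 2.33 CPM against 5.54, 4.10, 6.46, 6.55 and 5.07 CPM (log2 fold change 1.06 ± 0.24; edgeR adjusted p = 0.0134), on 51 control and 187 expanded UMIs. Cyp51 stood at 7.90, 7.34, 17.4, 14.4 and 14.2 CPM against 24.4, 14.5, 48.8, 23.7 and 23.1 CPM. Its arms overlapped, though it was higher in 5 of 5 pairs (log2 fold change 1.03 ± 0.24; edgeR adjusted p = 0.0137). Mvk stood at 3.13, 3.67, 3.87, 5.49 and 5.63 CPM against 9.42, 5.68, 10.8, 9.21 and 9.99 CPM, a gap of 0.05 CPM between the nearest libraries (log2 fold change 0.91 ± 0.21; edgeR adjusted p = 0.0138). The other genes that rose had log2 fold changes from 0.51 (Srebf2) to 1.40 (Sqle). Npc1, the most abundant of the genes in this class, stood at 177 CPM in control and 156 CPM in expanded libraries on average and did not pass (log2 fold change -0.29; edgeR adjusted p = 0.256). Its direction differed between the clusters of the class, which are described next.

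Here too the clusters changed: cluster 4 (C1qb, C1qc and Folr2) held 75.2% of the control cells of the class and 7.92% of the expanded cells, and cluster 2 (Chil3, Msr1 and Arg1) held 24.8% and 92.1%. The summed level was higher in both, from 570 ± 34.9 to 871 ± 106 CPM in cluster 4 (SD; 5 control and 3 expanded libraries) and from 570 ± 36.6 to 748 ± 108 CPM in cluster 2 (n = 5 each), without overlap in either. Npc1 went from 182 to 135 CPM on average in cluster 4, lower in 3 of 3 pairs. In cluster 2 it went from 115 to 160 CPM, higher in 4 of 5 pairs. Its arms overlapped in both clusters, and cluster 4 was not tested. By edgeR none of the 24 genes tested in cluster 2 passed, with 9 at an unadjusted p under 0.05, while 4.01% of all genes were called; with the replicate block 1 gene passed. The class count was 6 when either library of day 4 was left out, 7 when the day 1, round 2 control was left out, and 7 of 21 with cells thinned to 2000 UMIs. Fdps, Stard4, Fdft1, Cyp51 and Mvk passed in every alternative that tested them, but none of these held the cluster shares fixed. In cluster 2 the means of Cyp51 (24.9 and 25.2 CPM) and Mvk (7.43 and 7.32 CPM) were close in control and expanded skin. Fdps (14.1 and 27.9 CPM), Stard4 (6.28 and 14.4 CPM) and Fdft1 (3.54 and 4.46 CPM) were higher in expanded skin there, with overlapping arms. In cluster 4 Cyp51 went from 9.95 to 29.2 CPM and Mvk from 4.43 to 14.1 CPM. The part of the cluster change was not tested. Neutrophil markers summed to 49.0 to 119 CPM in control and 392 to 1794 CPM in expanded libraries of this class (5 of 7 with the higher mean in expanded skin), and fibroblast markers to 322 to 4263 CPM and 37.2 to 479 CPM (0 of 7); their part in the result was not tested.

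Cluster 5, an unnamed cluster led by Lyz1, Ear2 and Mmp12 and with Mgl2 and Cd209a among its leading genes, held 1976 control and 478 expanded cells. There 11 of 24 genes rose and none fell, where 6.70% of all genes rose, and the summed level went from 605 ± 107 to 1040 ± 205 CPM (SD, n = 5 each; ratio 1.72) without overlap. Hsd17b7, a sterol C3 ketone reductase, had the largest log2 fold change (2.16), followed by Fdps (1.58), Pmvk (1.48) and Sqle (1.35). Insig2 rose in this cluster (0.69), whereas it fell in fibroblast-like and basal keratinocyte-like cells; the difference was not tested. The count was 5 to 7 without any of 7 single libraries, lowest without the control library of day 4 or the expanded library of day 1, round 2, or day 4.

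Endothelial-like, T cell-like and sebaceous gland-like cells had no gene called. In endothelial-like cells, 0 of 25 genes passed by edgeR (2 at an unadjusted p under 0.05, and 0 by DESeq2), although 11.1% of 10482 genes were called. Hmgcs1 stood at 34.3, 38.6, 51.2, 47.9 and 36.8 CPM there against 38.6, 41.7, 41.8, 36.5 and 41.0 CPM, and Fdps at 9.93, 24.6, 6.60, 11.8 and 18.6 CPM against 14.0, 19.2, 19.6, 12.6 and 24.9 CPM. Both overlapped, and the median log2 fold change of the 25 genes was 0.18. The standard errors of the 25 ran from 0.12 to 0.48. In T cell-like cells 0 of 22 passed by edgeR (3 at an unadjusted p under 0.05, and 0 by DESeq2), where 0.0116% of 8623 genes were called; log2 fold changes ran from -0.44 to 0.95.

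In sebaceous gland-like cells, 0 of 23 genes passed by edgeR (1 at an unadjusted p under 0.05, and 0 by DESeq2), where 1.03% of 6685 genes were called. These cells were few, 177 control and 121 expanded, and libraries with at least 5 were used. Their sums stood at 1598, 2312, 3496 and 4606 CPM in control (day 2, round 1 left out with 3 cells) and at 1652, 2614, 2782, 1976 and 3731 CPM in expanded skin. The lowest control value was on day 1 and the highest on day 4, and the arms overlapped throughout. Idi1 stood at 162, 241, 469 and 686 CPM against 171, 259, 259, 288 and 441 CPM, and Hmgcs1 at 157, 330, 503 and 777 CPM against 328, 338, 427, 152 and 635 CPM. The median log2 fold change of the 23 genes was -0.16, with 4 above 0.

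In the smaller classes few genes passed. NK or innate lymphoid-like cells had 0 of 13 genes called by edgeR (0 at an unadjusted p under 0.05; 0.582% of all genes called), and Schwann-like cells 0 of 22 (6 unadjusted; 0.331% of all genes called). Pericyte-like cells had 3 of 22 genes higher (Fdps 1.41, Fdft1 1.36 and Sqle 1.22 on the log2 scale; 6.76% of all genes rose). Lymphatic endothelial-like cells had 3 of 16 (Idi1 1.56, Fdps 1.38 and Msmo1 1.37; 4.89% of all genes rose). Melanocyte-like cells had 2 of 23 (Fdps 2.07 and Msmo1 1.09; 0.572% of all genes rose). Dermal papilla-like cells had 1 of 23, Acat3 (2.18% of all genes rose). No gene fell in these classes, and Fdps rose in 3 of them.

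Across fibroblast-like, basal keratinocyte-like and macrophage or monocyte-like cells, 9 genes rose in all 3: Hmgcs1, Mvk, Pmvk, Idi1 and Fdps of the mevalonate pathway, then Fdft1, Cyp51, Srebf2 and Stard4. Of the 9671 genes tested in all 3 classes, 27 of the 28 among them, 2.22% rose in all 3. In all, 23 of the 28 rose in at least 1 class, as did 21.7% of the 14684 genes tested in any. The 5 that rose in none were Ggps1, which branches off to geranylgeranyl diphosphate, the late reductases Tm7sf2 and Dhcr7, and Insig2 and Npc1. The 3 classes come from the same libraries, so their calls are not independent. The clusters that make up the fibroblast-like and macrophage or monocyte-like classes also differed between the arms. Their part in these shared calls was not tested.

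**Figure D3:**
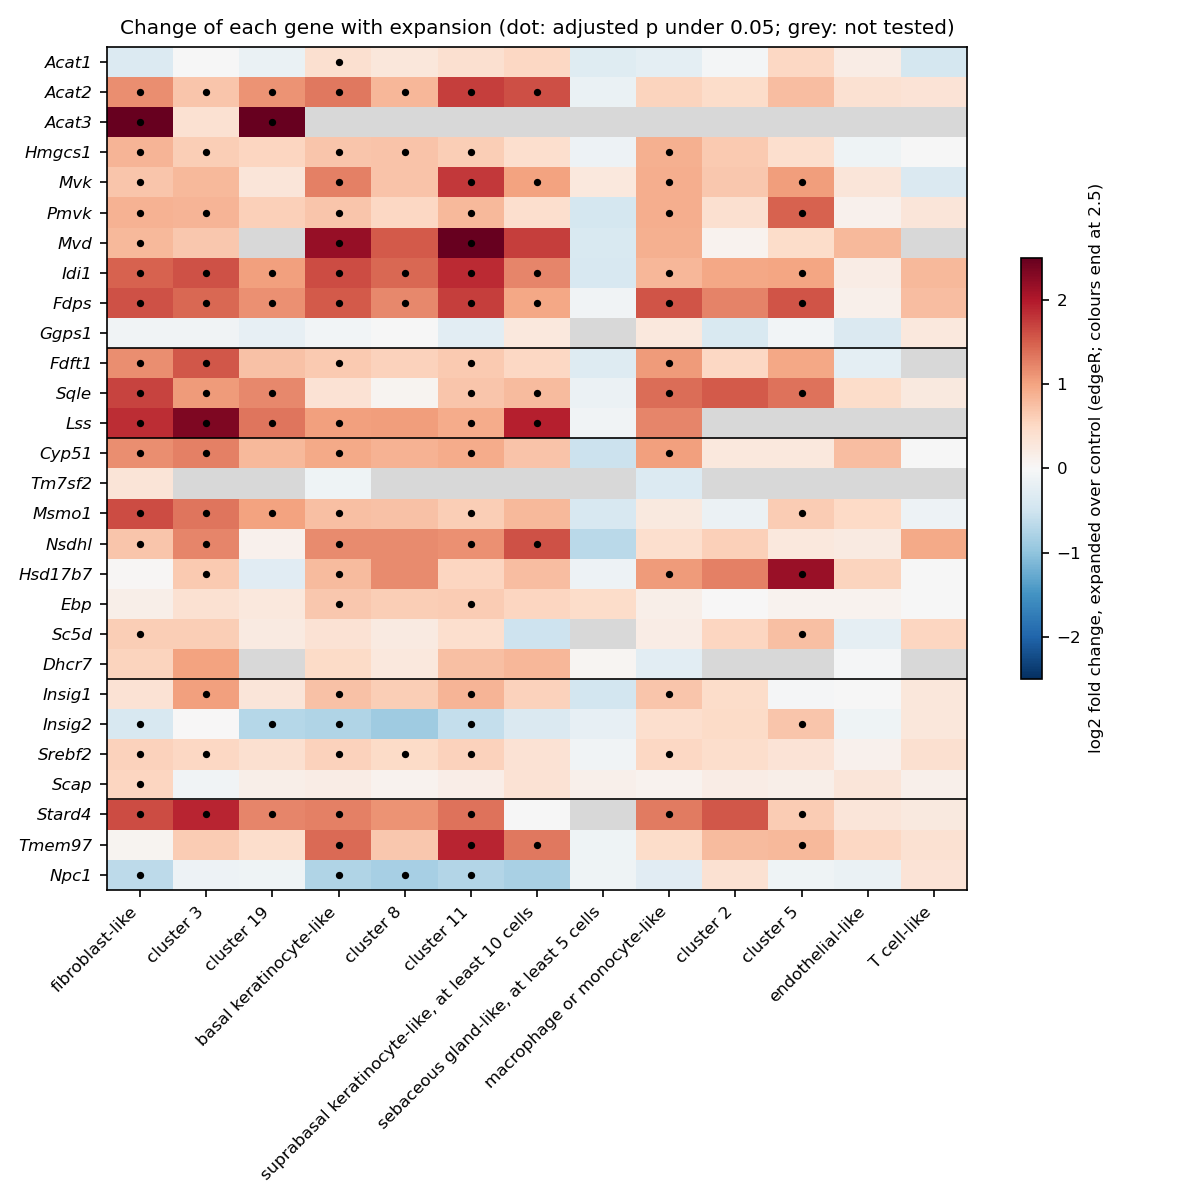
Log2 fold change of each gene (rows, grouped by role and separated by lines: mevalonate pathway, squalene and lanosterol formation, lanosterol to cholesterol, sensing, transport) between expanded and control libraries in classes and clusters (columns). Dots mark an adjusted p under 0.05 and grey cells were not tested; Fdps and Idi1 are red with dots in most columns, Npc1 and Insig2 are blue in fibroblast-like and basal keratinocyte-like cells, and the sebaceous gland-like, endothelial-like and T cell-like columns have no dots.

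Whether the response of a gene differed between classes was tested as a class-by-arm term with the library as a block. Between basal keratinocyte-like and fibroblast-like cells 4 genes differed, where 4.96% of 13957 genes did. Tmem97 rose more in basal keratinocyte-like cells, by 1.46 ± 0.23 on the log2 scale (SE; edgeR adjusted p = 0.00585); in fibroblast-like cells its own log2 fold change was 0.07. Mvd also rose more, by 1.58 ± 0.41 (edgeR adjusted p = 0.0400). Acat1 differed by 0.86 ± 0.16 (edgeR adjusted p = 0.0116), with 0.40 in basal keratinocyte-like and -0.34 in fibroblast-like cells. For Sqle the difference was -1.23 ± 0.31 (edgeR adjusted p = 0.0374), so the response was smaller in basal keratinocyte-like cells. Of the 4, only Tmem97 kept its call without each library in turn. It was the only gene called without the day 1, round 2 control, and 2 genes were called without the day 1, round 1 control or without any expanded library other than that of day 1, round 1.

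Between macrophage or monocyte-like and fibroblast-like cells 3 genes differed, a share near the background, where 11.1% of 13532 genes did. Msmo1, at 23.5, 30.8, 35.5, 32.9 and 28.7 CPM in control and 32.7, 42.6, 48.1, 36.4 and 31.4 CPM in expanded macrophage or monocyte-like cells, did not pass there, and its response differed from that of fibroblast-like cells by -1.44 ± 0.24 on the log2 scale (SE; edgeR adjusted p = 0.00565). Hsd17b7 differed by 0.91 ± 0.26 (edgeR adjusted p = 0.0397), with 1.07 in macrophage or monocyte-like and 0.04 in fibroblast-like cells. Insig2 differed by 0.72 ± 0.22 (edgeR adjusted p = 0.0485), with 0.41 in macrophage or monocyte-like and -0.39 in fibroblast-like cells. Msmo1 alone remained without the control library of day 1, round 2, or day 2, round 1, or the expanded library of day 4. Between suprabasal keratinocyte-like and fibroblast-like cells 1 gene differed, where 0.596% of 12915 genes did: Stard4, by -1.91 ± 0.43 (edgeR adjusted p = 0.0486), over 4 control and 3 expanded libraries. That call was lost without any of 4 control libraries and without the expanded library of day 1, round 1 or round 2.

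By day, the ratio of the mean summed levels in fibroblast-like cells was 1.38 at day 1, 1.75 at day 2 and 1.78 at day 4. In basal keratinocyte-like cells it was 1.53, 1.92 and 1.65, in macrophage or monocyte-like cells 1.27, 1.37 and 1.40, and in suprabasal keratinocyte-like cells 1.67, 1.78 and 1.37. Day 4 has 1 library per arm and was not tested. The suprabasal value of day 2 sets 2 expanded libraries against 1 control library, that of round 2, whose own pair had a ratio of 1.88. Within pairs of libraries, fibroblast-like cells had ratios of 1.49 and 1.28 on day 1, below the 1.89 and 1.62 of day 2 and the 1.78 of day 4. In basal keratinocyte-like cells the day 2 ratios were 2.33 and 1.63, the first of them with the 39-cell control library, and in macrophage or monocyte-like cells the lower day 2 pair (1.25) lay between the day 1 pairs (1.22 and 1.32). Within the sebaceous gland-like pairs the ratio was 1.03 and 1.13 (day 1), 0.57 (day 2, round 2) and 0.81 (day 4).

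No gene of the 28 had a response that passed for a difference between day 2 and day 1 by edgeR. In fibroblast-like cells 0% of 14413 genes passed, and 4 of the 28 and 581 of all had an unadjusted p under 0.05. The same count of 0% was found for 11941 genes in basal keratinocyte-like cells (2 of 27 genes and 777 in all unadjusted), 12076 in macrophage or monocyte-like cells (0 of 27 and 289) and 7345 in suprabasal keratinocyte-like cells (2 of 26 and 592). The suprabasal test had 1 control library on day 2. Standard errors of the 28 differences in fibroblast-like cells ran from 0.22 to 0.91 on the log2 scale. Of those 28 differences 24 were above 0, with a median of 0.48.

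**Figure D4:**
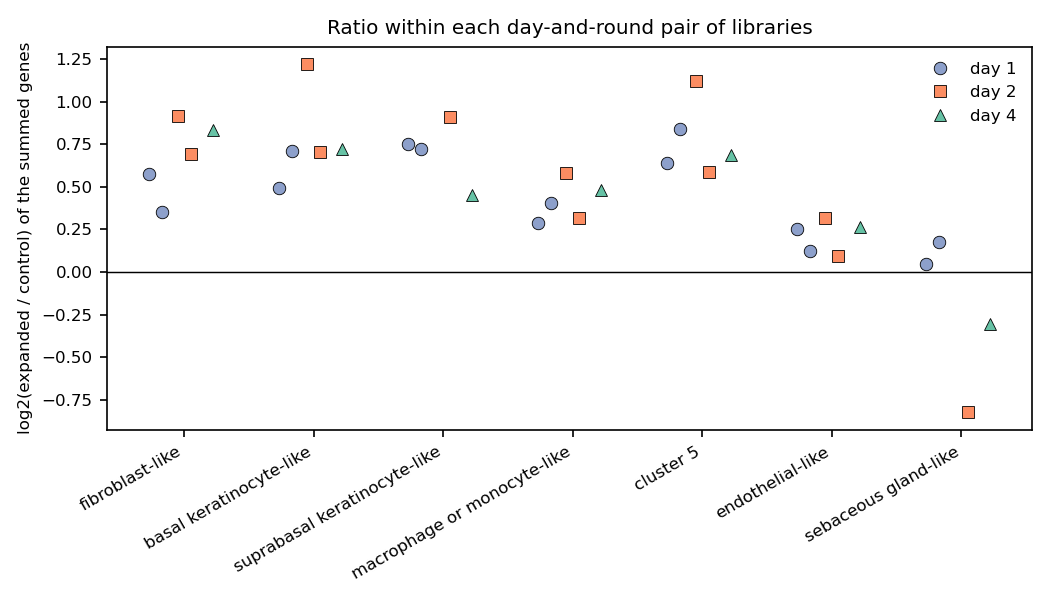
Log2 ratio of the summed level of the 28 genes, expanded over control, within each day-and-round pair of libraries (points; shape and colour give the day) for 7 classes or clusters. All pairs lie above 0 except the sebaceous gland-like pairs of days 2 and 4, at ratios of 0.57 and 0.81.

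Acat3 had the largest fold change of the 28. In fibroblast-like cells it stood at 0.0212, 0.155, 0.329, 1.10 and 0.354 CPM in control libraries (38 UMIs in all) and at 2.94, 5.85, 16.6, 21.5 and 24.5 CPM in expanded ones (397 UMIs). The arms did not overlap, each expanded library of days 2 and 4 was above those of day 1, and the log2 fold change was 5.12 ± 0.39 (SE; edgeR adjusted p = 0.000109). The gene differed by cluster and by arm. It was present in both arms of cluster 3 (18.8 CPM in control and 25.9 CPM in expanded skin on average, not called), rose in cluster 19 (0.65 to 19.7 CPM; log2 fold change 4.47) and in dermal papilla-like cells (2.09 to 20.9 CPM, on 3 control and 104 expanded UMIs), and stood at 3.19 and 24.4 CPM in cluster 18 and at 0 and 10.9 CPM in cluster 28. In cluster 1 it stood at 0.10 and 0.13 CPM, and in basal keratinocyte-like clusters 8 and 11 at 0.29 CPM or less in both arms.

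Acat3 lies on chr17:12923813-12940600 on the minus strand (GRCm38, GENCODE M21), 2289 bases from its paralog Acat2 (chr17:12942890-12960747, minus strand), and its end overlaps Tcp1, a chaperonin subunit on the opposite strand, over 1255 bases. The counts of Acat3 are uncertain, since reads that fit its paralog as well may be dropped, which was not tested. The part of the overlap with Tcp1, on the opposite strand, was not tested either. Tcp1 stood at 77.4 to 101 CPM in control and 111 to 145 CPM in expanded fibroblast-like cells. Acat2 rose both in fibroblast-like cells (log2 fold change 1.16) and in basal keratinocyte-like cells, where Acat3 was near 0.

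**Figure D5:**
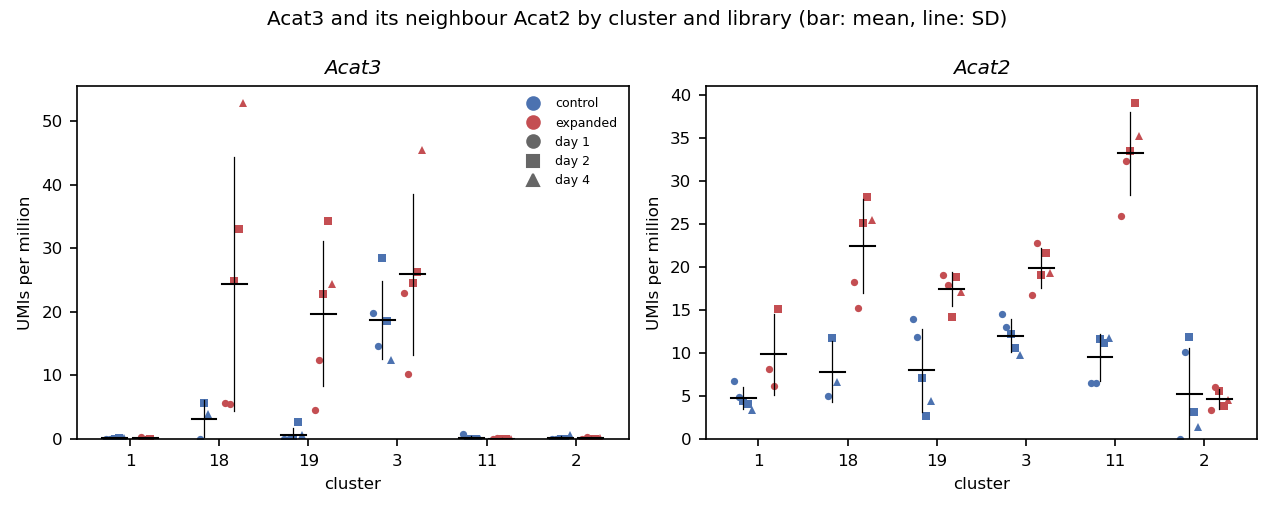
CPM of Acat3 (left) and its neighbour Acat2 (right) in each library (points; shape gives the day) of 6 clusters, control (blue) and expanded (red), with mean (bar) and SD (line). Acat3 is high in both arms of cluster 3, higher on average in the expanded than the control libraries of clusters 18 and 19, and near 0 in clusters 1, 11 and 2, while Acat2 is detected in all 6.

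Related gene groups were read from lists written for this comparison. Of genes of sterol efflux, storage and oxysterol response, 7 of 18 fell and 2 rose in fibroblast-like cells, where 15.7% of all genes fell, and 3 of 15 fell in basal keratinocyte-like cells, where 8.23% did. In macrophage or monocyte-like cells 7 of 17 fell and 1 rose, where 12.1% of all genes fell, and in endothelial-like cells, where none of the 28 passed, 4 of 15 fell against 6.13% of all genes. Abca1, the transporter that hands cholesterol to apolipoprotein A-I, fell from 609 ± 215 to 293 ± 81.1 CPM (SD, n = 5 each) in macrophage or monocyte-like cells (log2 fold change -1.15; edgeR adjusted p = 0.0056) and from 90.2 ± 19.6 to 46.3 ± 10.3 CPM in basal keratinocyte-like cells (-0.97; edgeR adjusted p = 0.00058). Both were lower in 5 of 5 pairs. Cyp27a1, the sterol 27-hydroxylase, fell by 2.66 on the log2 scale in macrophage or monocyte-like cells and by 1.19 in fibroblast-like cells. Ch25h, which makes 25-hydroxycholesterol, rose in fibroblast-like cells from 0.63 ± 0.31 to 4.89 ± 1.14 CPM (log2 fold change 2.74; edgeR adjusted p = 0.000408). Apoe, a lipoprotein component, fell from 13365 ± 1387 to 7275 ± 1080 CPM in basal keratinocyte-like cells (log2 fold change -0.93; edgeR adjusted p = 0.000168) and by 1.16 on the log2 scale in endothelial-like cells. All these values are for whole classes, not for single clusters. Cluster 4 made up 75.2% of control and 7.92% of expanded macrophage or monocyte-like cells, and the clusters of the fibroblast-like class changed too. The part of these changes was not tested.

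Of 16 genes of fatty acid synthesis and desaturation, which SREBP-1 controls, 5 of 14 tested rose in basal keratinocyte-like cells, where 11.2% of all genes rose, among them the citrate carrier Slc25a1 (log2 fold change 0.66), the desaturase Scd1 (0.77) and Acly (0.47). In fibroblast-like cells 3 of 16 rose and 1 fell, a share of rises near the 15.1% of all genes, with Fads2 (1.16) and Me1 (0.66) higher and Acacb (-1.85) lower, and none of 12 passed in macrophage or monocyte-like cells. The isoprenoid branch after farnesyl or geranylgeranyl diphosphate, 13 genes, had 2 higher in basal keratinocyte-like cells, Pdss1 (1.34) and Coq2 (0.62), both of ubiquinone synthesis, a share near the 11.2% of all genes, and none called in fibroblast-like or macrophage or monocyte-like cells. Of 14 further genes that control SREBP, Mbtps1, the protease that cuts SREBP first, fell in fibroblast-like cells (log2 fold change -0.68; edgeR adjusted p = 0.000841), and Nfyb, a subunit of the CCAAT-binding NF-Y, rose in fibroblast-like (0.45) and basal keratinocyte-like cells (0.69). Rnf145, an ubiquitin ligase of the sterol system, fell in fibroblast-like (-0.53) and macrophage or monocyte-like cells (-1.32). Nfya, another subunit of NF-Y, fell in macrophage or monocyte-like cells (-0.97). In this list 1 of 14 rose and 2 fell in fibroblast-like cells (15.1% and 15.7% of all genes), 2 of 14 rose in basal keratinocyte-like cells (11.2%) and 2 of 13 fell in macrophage or monocyte-like cells (12.1%), all near or below the shares of all genes.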

How the data were processed

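Single-cell mRNA libraries of skin from 5 control and 5 expanded pools of mice were used. The deposited matrices hold raw UMI counts, which the authors produced with Cell Ranger 6.1.2 on mm10 per the submitters' processing notes. Cells needed 200 genes, 500 UMIs and a mitochondrial share of at most 10% (47251 passed). Doublets called by Scrublet or by 2 hashtags (1186) were removed; Scrublet marked 0.0584 to 2.97% of a library, under 0.5% in 4 smaller libraries, so some doublets may remain. Cells were clustered with scanpy 1.11.5 on 2000 variable genes without the 28 genes, 30 components and Leiden resolution 1. Clusters were named from fixed marker lists; the scoring limits were set while the clusters were examined. Counts were summed per library and class (at least 20 cells, 10 in suprabasal and 5 in sebaceous gland-like cells) and tested with edgeR 4.0.16 in R 4.3.3 (filterByExpr, TMM, quasi-likelihood, day as covariate, Benjamini-Hochberg over all genes tested); DESeq2 1.42.0 was an alternative. SE is the log2 fold change divided by the square root of F. The scripts were tested on simulated counts.

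The genes and the other lists were chosen with earlier results of these data known. Values per library are given for up to 6 called genes per class with the smallest adjusted p, and of other lists for up to 3 called genes per list and class; other genes with values in every library, and the genes named in clusters, were chosen after their values were seen. Coordinates are from GENCODE M21 (GRCm38, the build of mm10). The hair follicle class, for which no cluster was named, and the dendritic-like class, with 3 expanded libraries, were not tested. Suprabasal and sebaceous gland-like cells, smaller classes, single clusters and the contrast of basal keratinocyte-like with fibroblast-like cells were added after the data were seen. Arms share day and round per the labels; deviations of paired libraries from their arm means correlated at 0.53, 0.35, -0.02, 0.31 and 0.52. P-values measure the spread between pooled libraries, not between mice. Fewer cells of a type within a class and less RNA per cell cannot be told apart from these sums. The 8 hashing samples hold antibody barcodes only and entered no comparison of genes.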

Additional observations from a re-analysis of the deposited data

Results flagged for a closer look

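In 30 groups of 4 or 5 libraries the summed level of the 28 genes was checked for a library that stands far from the others, and 4 were found; chance flags about 1 in 20 groups. In expanded basal keratinocyte-like cells day 1, round 1 was low at 1297 CPM, with the other libraries at 1654 CPM or above. In expanded endothelial-like cells day 4 was high at 535 CPM. In control lymphatic endothelial-like cells day 2, round 1 was low at 258 CPM. In expanded macrophage or monocyte-like cells day 2, round 1 was high at 921 CPM.

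The expansion effect of 8 genes differed between classes by a test of the difference itself (edgeR class-by-arm term, log2 scale). These were 4 of 28 genes for basal keratinocyte-like cells (4.96% of all genes differed), 3 of 28 for macrophage or monocyte-like cells (11.1%, so at the background share) and 1 of 28 for suprabasal keratinocyte-like cells (0.596%). Against fibroblast-like cells, basal keratinocyte-like cells differed by 1.46 for Tmem97, 1.58 for Mvd, 0.86 for Acat1 and -1.23 for Sqle. Macrophage or monocyte-like cells differed by -1.44 for Msmo1, 0.91 for Hsd17b7 and 0.72 for Insig2. Suprabasal keratinocyte-like cells differed by -1.91 for Stard4.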

How the results depend on the processing

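No result changed direction under the alternatives run (RLE size factors, DESeq2, no filter on low counts, cells thinned to 2000 UMIs, at least 50 cells, a mitochondrial limit of 5%, hashed mice as units, the replicate block, and each library left out in turn). With cells thinned to 2000 UMIs, 9 genes were called in basal keratinocyte-like, 7 in macrophage or monocyte-like and 0 in suprabasal cells; the thinned tables tested fewer genes. T cell-like cells had 1 call without the filter and 1 with mice as units. With the replicate block (each day and round pair as a block), 21 fibroblast-like, 21 basal keratinocyte-like and 14 macrophage or monocyte-like calls were made, and 1 each in clusters 2 and 24; it moved no other count by over 1.5 times. With mice as units, 22 genes were called in fibroblast-like cells. Hashed mice of one arm, day and round share a library, so they are not independent replicates. Leaving out 1 library gave 15 to 20 calls (fibroblast-like), 16 to 20 (basal), 6 to 13 (macrophage or monocyte-like) and 2 to 9 (suprabasal). It gave 0 to 1 in cluster 2, 11 to 15 in cluster 3, 5 to 9 in cluster 5, 0 to 5 in cluster 8, 16 to 21 in cluster 11, 6 to 11 in cluster 19 and 0 to 1 in cluster 24. For the differences against fibroblast-like cells it gave 1 to 5 (basal), 1 to 4 (macrophage or monocyte) and 0 to 1 (suprabasal). Of the called genes, 15 of 20 (fibroblast-like), 11 of 21 (basal), 5 of 12 (macrophage or monocyte-like) and 1 of 8 (suprabasal) passed in every alternative that tested them. None of the alternatives held the cluster shares of a class fixed. The causes were not tested. Alternatives for the hair follicle and dendritic-like classes were not run, since these classes could not be fitted.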
